A study of Mus musculus with 3 samples.

Results

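The BCL2 family survival and death genes were described in polyA RNA-seq libraries of bone-marrow-derived macrophages, cells grown from the marrow of C57BL/6J mice. The 10 members followed here were taken by gene symbol, and all 10 were found in the 55450 genes that both of the deposited quantifications list. They comprise 6 survival genes, Bcl2, Bcl2l1, Mcl1 and the copies Bcl2a1a, Bcl2a1b and Bcl2a1d, the 2 effectors Bax and Bak1, and the 2 BH3-only genes Bcl2l11 and Bid. The 3 libraries form a single group. Its cells received 100 ng/ml of a stimulus for 12 hours, were washed and rested for 12 hours, and were stimulated again at 100 ng/ml for 180 minutes before whole-cell RNA was taken. The sample descriptions name the stimulus Lipid A, the bacterial lipid that activates Toll-like receptor 4, whereas the source and treatment fields name it lipoprotein A. Sex and age were not collected. The labels give 3 biological replicate numbers but name the same donor record for all 3, so the spread reported here is that between these samples, which may be technical. No untreated or singly stimulated sample was analysed here, so no value below measures a response to the stimulus.

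Proteins of this family decide whether the outer mitochondrial membrane stays intact. Bax and Bak1 are the effectors that open pores in it and release cytochrome c. The survival proteins hold the effectors and the BH3-only proteins in check, and the BH3-only proteins, which sense damage or loss of growth signals, act against the survival proteins or switch on the effectors directly. In myeloid cells the A1 protein encoded by the Bcl2a1 copies is known as a target of NF-kappaB, and Mcl1 is known for a short-lived protein that many blood cells need to survive.

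The authors quantified each library from an alignment to the transcriptome, by gene and by transcript, and again by transcript straight from its FASTQ reads. Levels are in TPM, transcript abundance scaled to transcript length and to a fixed library total so that genes can be compared, and are from the alignment-made tables unless stated. Total expected counts were between 23418690 and 37728915 per library, lowest in replicate 1. All 10 macrophage markers examined had at least 1 TPM in every library, and together they held between 20465 and 23339 TPM. Of 10 neutrophil markers 3 reached 1 TPM in every library, with summed levels between 98.4 and 207 TPM, and Ly6g and Retnlg had 0 counts throughout. Csf3r, which macrophages also express, had 98.3, 107 and 87.6 TPM in replicates 1, 2 and 3, most of the sum in replicates 1 and 3. The highest of these sums was in replicate 2, where S100a8 had 39.4 TPM and S100a9 had 58.0 TPM, against at most 6.84 and 5.10 TPM in the other libraries. None of the mast cell, T and NK cell, dendritic cell or fibroblast markers reached 1 TPM in every library, and of the B cell markers 1 of 6 did, Cd79b. In bulk RNA, fewer cells of a type and less RNA per cell cannot be told apart.

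All 10 members had at least 1 TPM in all 3 libraries, as did 44.4% of the 21951 protein-coding genes. Bcl2a1b and Bcl2a1d were the most abundant members, Mcl1 and Bcl2a1a came next, the effectors lay below these, and Bcl2 itself was the lowest. The members spanned from 1.39 ± 0.20 TPM for Bcl2 to 1081 ± 47.7 TPM for Bcl2a1b (SD, n = 3). Their mean levels ranked between 97 and 9767 among the protein-coding genes, and 6 of the 10 averaged at least 100 TPM, as did 1288 of all protein-coding genes. The median of mean log2(TPM + 1) was 7.19 over the members and 4.24 over the 9741 protein-coding genes with at least 1 TPM in all 3 libraries.

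**Figure D1:**
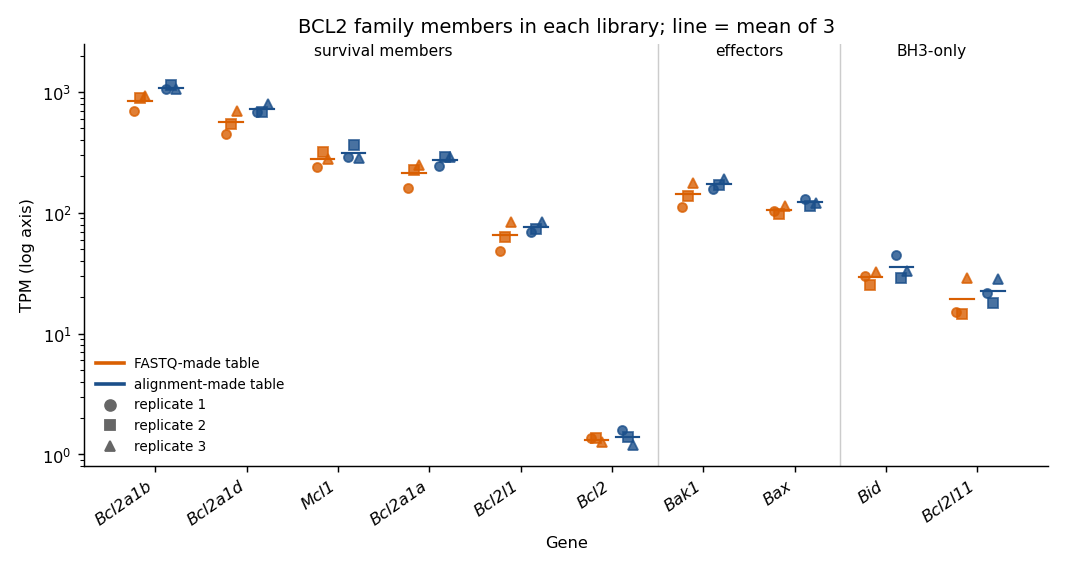
Levels of the 10 members in TPM on a log axis, grouped by role. Each point is a library (circle, square and triangle for replicates 1, 2 and 3), orange for the FASTQ-made and blue for the alignment-made table, and each line is the mean of 3. Bcl2a1b stood highest at 840 TPM in the FASTQ-made and 1081 TPM in the alignment-made tables, and Bcl2 lowest at 1.33 and 1.39 TPM.

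Of the survival genes, Bcl2a1b had 1056, 1136 and 1051 TPM in replicates 1, 2 and 3. Bcl2a1d had 682, 686 and 792 TPM. Bcl2a1a had 246, 292 and 287 TPM. The ranges of the copies did not overlap, and their order was the same in all 3 libraries. Summed, they held 2076 ± 79.6 TPM (SD, n = 3), which was 84.2% ± 1.26 of the TPM of the survival genes. These copies are near identical, so their separate levels depend on how reads are divided among them.

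The copies lie on mouse chromosome 9 (mm10, annotation M21). Bcl2a1d spans chr9:88723285-88731914 on the minus strand, Bcl2a1a chr9:88956900-88962419 and Bcl2a1b chr9:89199209-89207827 on the plus strand. Each has 1 annotated transcript of 2 exons. Bcl2a1b overlaps the gene model Gm29094 on the same strand, which averaged 18.6 TPM, and Bcl2a1d overlaps the antisense gene Gm10634, at 0.49 TPM. Their coding sequences are all 516 bases long and differ at 12 positions, and Bcl2a1a carries 6 bases found in neither other copy, Bcl2a1b 5 and Bcl2a1d 1. Pairwise, the coding sequences are 97.9% identical between Bcl2a1a and Bcl2a1b, 98.6% between Bcl2a1a and Bcl2a1d and 98.8% between Bcl2a1b and Bcl2a1d, with 8, 6 and 4 codons that encode different residues. The first 90 coding bases hold 6 of the 12 positions and are shown because they hold most of what tells the copies apart at that end. They are from the GENCODE M21 transcripts, 5′ to 3′, with capitals for a base carried by that copy alone.
Bcl2a1a: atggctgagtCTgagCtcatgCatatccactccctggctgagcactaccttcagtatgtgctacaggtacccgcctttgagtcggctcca
Bcl2a1b: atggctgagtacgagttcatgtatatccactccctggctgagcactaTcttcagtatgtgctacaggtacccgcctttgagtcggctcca
Bcl2a1d: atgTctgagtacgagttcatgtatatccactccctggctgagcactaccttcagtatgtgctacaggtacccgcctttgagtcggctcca
Coding bases 292 to 381 hold another 3 of the 12 positions and are marked in the same way.
Bcl2a1a: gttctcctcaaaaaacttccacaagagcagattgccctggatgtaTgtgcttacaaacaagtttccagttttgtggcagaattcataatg
Bcl2a1b: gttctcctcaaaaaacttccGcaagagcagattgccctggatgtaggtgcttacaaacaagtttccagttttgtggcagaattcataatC
Bcl2a1d: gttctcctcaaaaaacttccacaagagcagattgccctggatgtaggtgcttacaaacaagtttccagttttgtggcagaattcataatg
In this second stretch Bcl2a1d carries no base of its own, and it is told from Bcl2a1a and from Bcl2a1b only by the bases those copies carry.

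Of the 31-base sequences in each transcript, 79.6% of those of Bcl2a1a, 88.8% of those of Bcl2a1b and 89.1% of those of Bcl2a1d also occur in another gene. Bcl2a1a shares 78.1% of its sequences with Bcl2a1d and 56.5% with Bcl2a1b. A read of that length from these stretches matches several genes, and how it is placed is up to the program. A longer read can span more of the differing positions, and longer stretches were not counted. The deposited gene tables give a posterior SD of each count, and it was 21.3, 25.9 and 25.8 counts for Bcl2a1a on 2195, 4083 and 4031 expected counts. For Bcl2a1b and Bcl2a1d it lay between 0.135% and 0.401% of the count, below the 0.795% to 1.24% that Poisson counting gives. It was 0 in all libraries for Bcl2l1, Bcl2l11 and Mcl1.

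The FASTQ-made and alignment-made tables divided the copies almost alike. Bcl2a1b held 53.5%, 53.7% and 49.4% of the copies' summed TPM in the FASTQ-made tables and 53.2%, 53.8% and 49.3% in the alignment-made tables. Bcl2a1d held 34.2%, 32.7% and 37.3% in the FASTQ-made tables and 34.4%, 32.4% and 37.2% in the alignment-made tables. Bcl2a1a held 12.3%, 13.6% and 13.3% in the FASTQ-made tables and 12.4%, 13.8% and 13.5% in the alignment-made tables. No share differed between the tables by more than 0.277 percentage points, whereas the shares of Bcl2a1b and Bcl2a1d varied between libraries with SDs of 2.41 and 2.38 points in the alignment-made tables. Replicate 3 had the lowest share of Bcl2a1b and the highest of Bcl2a1d in both tables. The ratio of Bcl2a1b to Bcl2a1d was 1.55, 1.66 and 1.33, and that of Bcl2a1b to Bcl2a1a was 4.29, 3.89 and 3.66, in replicates 1, 2 and 3 of the alignment-made tables. Both tables come from the same reads, so their likeness is no replicate check, and reads that match several copies equally were divided by rules that the sources used here do not give.

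**Figure D2:**
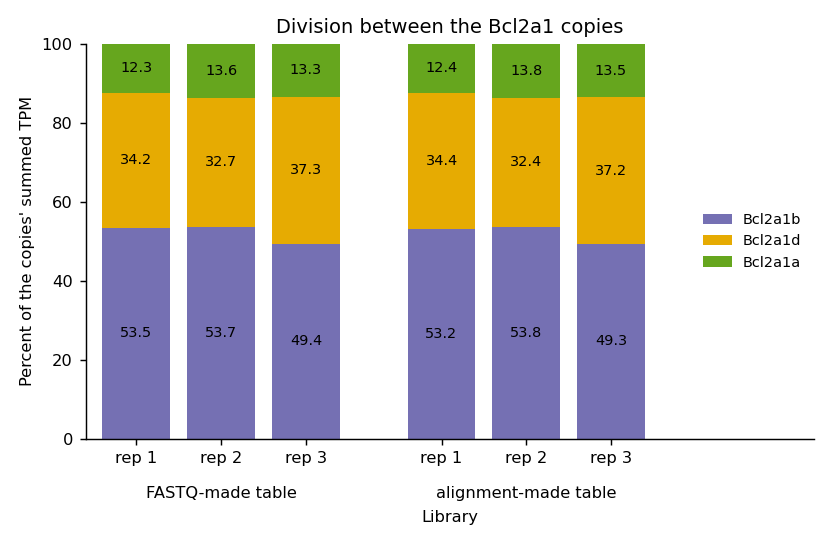
Percent of the summed TPM of the 3 Bcl2a1 copies held by each, by library, in the FASTQ-made table (left) and the alignment-made table (right). Within each library the tables differ by at most 0.277 percentage points, and replicate 3 has the lowest Bcl2a1b share in both.

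A further gene of the cluster's family, Bcl2a1c, is no member here. It is annotated as a single-exon gene at chr9:114330135-114330578, and 30.9% of its 31-base sequences recur in other genes. It was listed at 0 in all FASTQ-made tables, against 4.31, 5.72 and 6.46 TPM on 13, 26 and 28.4 expected counts in the alignment-made tables.

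The sequence just upstream of the copies is shown because levels up to 4.29-fold apart came from genes whose starts are nearly alike. RefSeq promoter windows (GRCm38.p6) gave the bases before the annotated start of Bcl2a1d and their counterparts in the other copies, whose own starts lie 44 bases further on. Capitals mark the 1 substituted column and the 6 bases absent from Bcl2a1d, all read 5′ to 3′ on the gene's strand.
Bcl2a1a, chr9:88956730-88956855, plus strand: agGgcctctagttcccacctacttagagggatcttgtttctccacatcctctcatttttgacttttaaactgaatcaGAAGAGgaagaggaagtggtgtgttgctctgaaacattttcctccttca
Bcl2a1b, chr9:89199039-89199164, plus strand: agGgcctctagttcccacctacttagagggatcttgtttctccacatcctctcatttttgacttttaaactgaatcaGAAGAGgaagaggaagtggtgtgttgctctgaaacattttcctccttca
Bcl2a1d, chr9:88731915-88732034, minus strand: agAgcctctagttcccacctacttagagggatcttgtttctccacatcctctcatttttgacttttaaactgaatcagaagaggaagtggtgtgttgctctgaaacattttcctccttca
The upstream stretches of Bcl2a1a and Bcl2a1b are the same in every base. All 3 windows hold GAGGAAGT on either strand, a motif picked after the sequences had been read, as do 3.2% of the 32851 RefSeq promoter windows of 300 bases, and of the other 7 members Bak1 does. The 3.2% is per window, whereas a member counted if any of its windows held the motif. A match of letters is a description only.

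Mcl1, at chr3:95658788-95663176, was the survival gene with the highest mean after Bcl2a1b and Bcl2a1d. It had 292, 365 and 285 TPM in replicates 1, 2 and 3. Replicate 2 stood above the other libraries, which were close together in the alignment-made tables. In the FASTQ-made tables the values were 238, 319 and 279 TPM, so the other libraries lay further apart. Mcl1 exceeded Bcl2a1a in replicates 1 and 2 and lay below it in replicate 3, so these neighbours in the order did not differ beyond their spread in the alignment-made tables. In the FASTQ-made tables Mcl1 was the higher in all 3 libraries. Every other pair of neighbours in the order (Bcl2a1b, Bcl2a1d, Mcl1, Bcl2a1a, Bak1, Bax, Bcl2l1, Bid, Bcl2l11, Bcl2) kept its order in all 3 libraries, and the FASTQ-made tables gave the same order of means.

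Bcl2l1, which encodes the survival protein Bcl-xL, had 69.6, 74.2 and 84.2 TPM. Bcl2, the founding member of the family, had 1.59, 1.40 and 1.19 TPM on 161, 241 and 212 counts. The ranges of Bcl2l1 and Bcl2 did not overlap, and all other survival genes were above Bcl2 in every library. Bcl2l1 lies at chr2:152780668-152831728 and Bcl2 at chr1:106538178-106714274, and 6.21% of the 31-base sequences of Bcl2 also occur in other genes.

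The effectors were of like abundance. Bak1, at chr17:27019810-27029009, had 158, 169 and 190 TPM. Bax, at chr7:45461697-45466898, had 131, 114 and 121 TPM. Bak1 was above Bax in each library, by all annotated transcripts. Of the 31-base sequences of Bak1 20.4% recur in other genes, most of them in Ggnbp1 on the opposite strand, and of those of Bax 11.1% do. Counting is not stated to use strand, so reads of such overlapping genes may not be told apart, though Ggnbp1 averaged at most 1.03 TPM over its annotated entries.

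The BH3-only genes were the lowest group other than Bcl2. Bid, whose protein is cut by caspase-8 and so joins death receptors to mitochondria, had 44.8, 28.7 and 32.8 TPM. Bcl2l11, which encodes BIM, had 21.8, 18.0 and 28.3 TPM. Bid was the higher in each library, but its lowest value, in replicate 2, nearly met the highest of Bcl2l11, in replicate 3. Bid, at chr6:120891930-120916853, overlaps Bcl2l13 on the opposite strand, which averaged 20.9 TPM, and shares 16.9% of its 31-base sequences with it. Bcl2l11, at chr2:128126038-128162547, shares 0.408%.

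Ratios within a library set the survival genes against the death genes. The 9 ratios examined all kept their sign in 3 of 3 libraries. Each had an exact two-sided sign-flip p of 0.25, the smallest that 3 libraries allow, so none can pass 0.05. The survival genes summed exceeded Bax and Bak1 summed by 3.02, 3.17 and 3.01 on the log2 scale, a mean of 8.38-fold. By transcripts annotated as protein coding alone, the survival genes exceeded these effectors by a mean of 3.68 on the log2 scale. They exceeded Bcl2l11 and Bid summed by 5.14, 5.77 and 5.35 on the log2 scale, a mean of 42.9-fold. Members alone were summed, so the BH3-only gene Bad, at a mean of 44.2 TPM, and the survival gene Bcl2l2, at 18.6 TPM, were not counted. These sums rest largely on the Bcl2a1 copies, and messenger levels do not measure the proteins that meet at the membrane.

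Between single genes, the copies summed exceeded Mcl1 by a mean log2 ratio of 2.73 ± 0.19 (SD, n = 3), or 6.65-fold. Mcl1 exceeded Bcl2l1 by 2.04 ± 0.27, or 4.12-fold, and Bcl2 by 7.82 ± 0.26, or 226-fold. Bcl2l1 exceeded Bcl2 by 5.77 ± 0.35, or 54.7-fold. The ratio of Bcl2l11 to Mcl1 was -3.81 ± 0.51, that of Bax to Bak1 was -0.50 ± 0.20 and that of Bid to Bcl2l11 was 0.64 ± 0.42. Ratios by TPM and by CPM, the counts scaled to library size but not to length, differed in size. In CPM the log2 ratio of the copies summed to Mcl1 was 0.24, that of Mcl1 to Bcl2l1 was 2.71, that of Mcl1 to Bcl2 was 6.75, that of Bcl2l1 to Bcl2 was 4.04 and that of Bax to Bak1 was -1.79. In CPM the survival genes summed exceeded Bcl2l11 and Bid summed by 4.02, and Bax and Bak1 summed by 2.80, on the log2 scale. The direction for Bax and Bak1 turned round when only transcripts annotated as protein coding were counted. The direction for Bid and Bcl2l11 turned round, to -0.19, in CPM.

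The effectors differed in which annotated transcripts held their TPM. Of the 4 Bak1 transcripts, Bak1-201 and Bak1-204 are annotated as targets of nonsense-mediated decay, the pathway that removes messengers with an early stop codon. In the FASTQ-made tables they held 59.5%, 48.2% and 40.8% of Bak1 TPM, against 60.1%, 58.6% and 57.7% in the alignment-made tables. Among 3017 expressed protein-coding genes with such a transcript, the median share was 3.85% in the FASTQ-made and 2.83% in the alignment-made tables. Shares as high as that of Bak1 were reached by 4.81% of these genes in the FASTQ-made and 2.55% in the alignment-made tables. Bak1-202, with 209 codons before its stop, the full length of the mouse protein, held 15.5%, 33.6% and 36.5% in the FASTQ-made and 19.1%, 15.7% and 13.6% in the alignment-made tables. Its share in the FASTQ-made tables was above the alignment-made share in replicates 2 and 3 and below it in replicate 1. Only 2.42%, 13.4%, 2.75% and 1.5% of the 31-base sequences of Bak1-201, Bak1-202, Bak1-203 and Bak1-204 are found in no other Bak1 transcript, so few sequences tell them apart.

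By transcripts annotated as protein coding alone, Bak1 had 63.1, 70.0 and 80.5 TPM and Bax had 131, 113 and 120 TPM. On that measure Bax was above Bak1 in all 3 libraries of the alignment-made tables, with a mean log2 ratio of Bax to Bak1 of 0.77. The gap was narrower in replicate 3 of the FASTQ-made tables. There Bak1-202 and Bak1-203 had 64.0 and 39.8 TPM, and Bax-201, Bax-203 and Bax-205 had 89.1, 12.0 and 11.1 TPM. Bax-201, with the 192 codons of the full-length protein, held 80.8%, 75.2% and 77.9% of Bax TPM in the FASTQ-made and 85.0%, 76.0% and 76.9% in the alignment-made tables. Bax-203, whose coding sequence is incomplete in the annotation, held up to 14.0%, and Bax-205, with 171 codons, up to 12.5%.

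**Figure D3:**
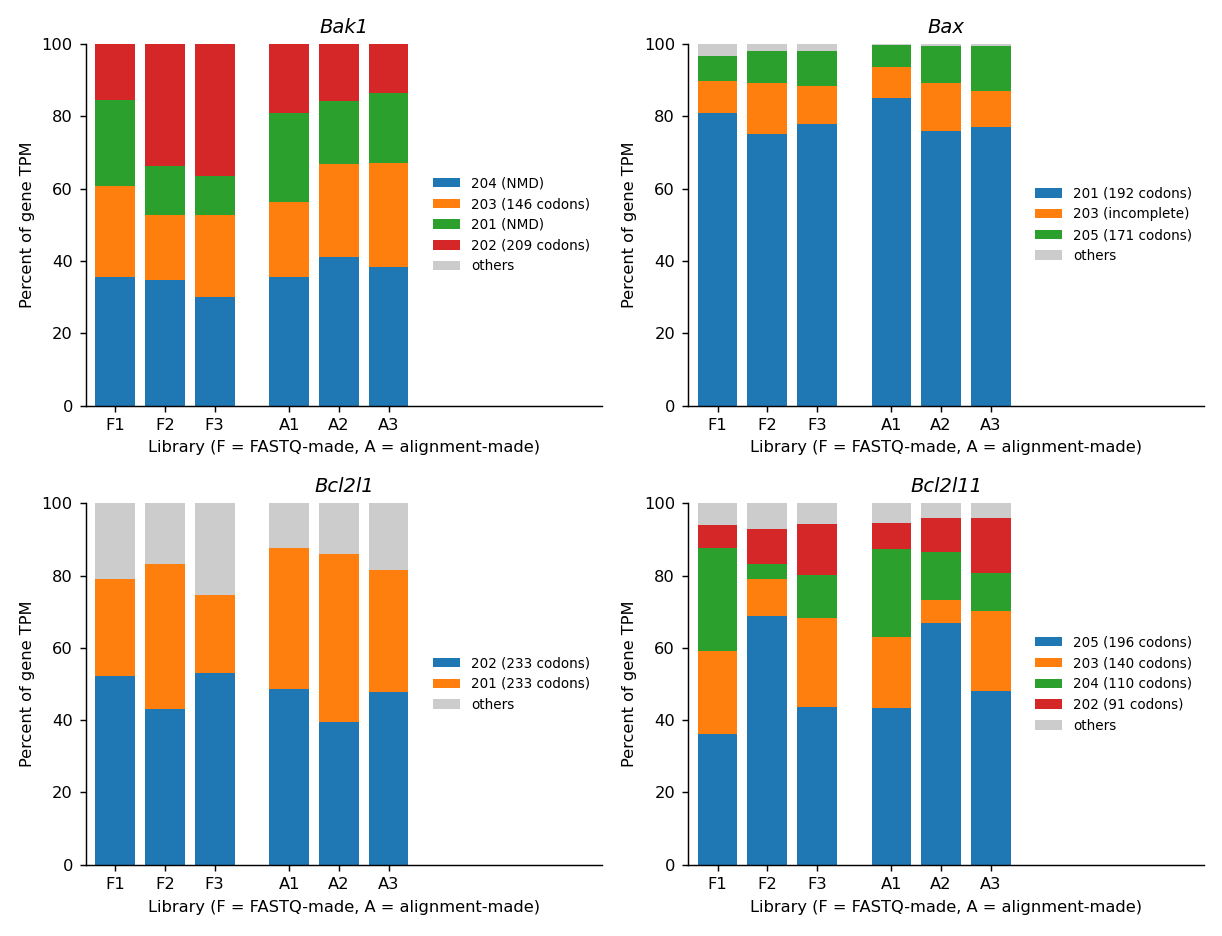
Percent of gene TPM held by each annotated transcript with at least 10% in any library, for Bak1, Bax, Bcl2l1 and Bcl2l11, in the FASTQ-made (F, left) and alignment-made (A, right) tables of replicates 1 to 3. NMD marks transcripts annotated as targets of nonsense-mediated decay, and grey holds the rest. Bak1-202 varies most between tables, from 15.5% to 36.5% in the FASTQ-made and 13.6% to 19.1% in the alignment-made ones.

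Bcl2l11 is known for BIM isoforms of different length and potency, among which the short isoform kills more strongly than the long and extra-long ones. Bcl2l11-205, with the 196 codons of the extra-long isoform, held 36.1%, 68.9% and 43.7% of Bcl2l11 TPM in the FASTQ-made and 43.3%, 66.8% and 48.2% in the alignment-made tables. Replicate 2 had the highest share in both. Bcl2l11-203, with the 140 codons of the long isoform, held 23.1%, 10.3% and 24.6% in the FASTQ-made and 19.7%, 6.6% and 22.0% in the alignment-made tables. Transcripts with the 110 codons of the short isoform held 28.5%, 5.99% and 11.7% in the FASTQ-made and 24.4%, 14.0% and 11.0% in the alignment-made tables. Bcl2l11-202, with 91 codons, held 6.37%, 9.62% and 14.4% in the FASTQ-made and 7.31%, 9.6% and 15.2% in the alignment-made tables. No 31-base sequence of Bcl2l11-203 or Bcl2l11-204 is theirs alone, so no read of that length is proof of either.

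Bcl2l1 can be spliced to the survival form Bcl-xL or to a shorter form that promotes death. Bcl2l1-201 and Bcl2l1-202, both with the 233 codons of Bcl-xL, together held 79.1%, 83.2% and 74.6% of Bcl2l1 TPM in the FASTQ-made and 87.6%, 86.0% and 81.6% in the alignment-made tables. The rest lay in 7 other annotated transcripts, mostly those whose coding sequence is incomplete. These incomplete ones held means of 17.1% in the FASTQ-made and 12.4% in the alignment-made tables. The shortest complete coding sequence of Bcl2l1 has 209 codons, and transcripts with it held 1.72% and 1.36%. Whether any annotated transcript encodes the form that promotes death was not examined, so these shares do not measure that form. Nearly all Bid TPM was in Bid-201 with 195 codons, at 94.6% ± 2.66 in the FASTQ-made and 98.4% ± 0.945 in the alignment-made tables (SD, n = 3). Bcl2-201, with 236 codons, held 84.2% ± 5.81 in the FASTQ-made and 92.1% ± 4.69 in the alignment-made tables, and Bcl2-202, with 199 codons, held the remainder.

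Mcl1 was divided differently in a single library. Mcl1-202, with 285 codons against 331 in Mcl1-201, had 41.6, 0.201 and 0.986 TPM in the FASTQ-made tables, against 0, 0 and 0.33 TPM in the alignment-made tables. Replicate 1 therefore had 17.5% of Mcl1 TPM in this transcript by the FASTQ-made table, and the other libraries had at most 0.354%. Only 24 of the 828 sequences of 31 bases in Mcl1-202 are absent from Mcl1-201, and they form 1 run. In replicate 1 the log2 difference of the Mcl1 gene total (FASTQ-made over alignment-made) stood 0.15 above the median of all genes, against -0.03 and -0.02 in replicates 2 and 3.

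At the median gene, FASTQ-made TPM ran below alignment-made TPM. The median log2 difference (FASTQ-made over alignment-made) of the 12458 genes tested was -0.45, -0.16 and -0.01 in replicates 1, 2 and 3. A gene was called different when the difference was at least 2-fold with the same sign in all 3 libraries, which 1079 genes were, or 8.66% of those tested. Of these calls 790 were higher and 289 lower in the FASTQ-made tables. None of the 10 members was called. Relative to the median of all genes in each library, the mean differences of the members lay between -0.19 for Bcl2a1a and 0.15 for Bcl2. The copies Bcl2a1a, Bcl2a1b and Bcl2a1d were below the median in each library, by a mean of -0.19, -0.17 and -0.17, and 65.1% to 67.7% of all tested genes lay closer to the median than these, counted in either direction.

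**Figure D4:**
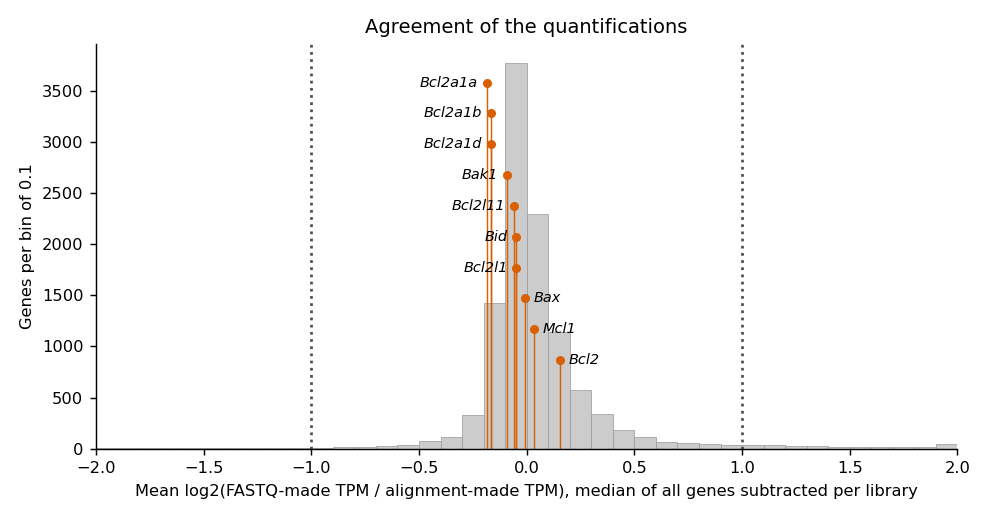
Grey bars count genes by their mean log2 ratio of FASTQ-made to alignment-made TPM over 3 libraries, after subtracting the median of all genes in each library. The axis holds 11013 of the 12458 genes tested, dotted lines mark a 2-fold difference, and orange pins give the members, which lie between -0.19 and 0.15.

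The members varied unequally between libraries. Their SDs of log2(TPM + 0.1) had a median of 0.138 in the alignment-made tables, and 3 of 10 were above the median of the 500 protein-coding genes nearest to them in level. That count was 6 without replicate 1, 6 without replicate 2, 4 without replicate 3 and 5 in the FASTQ-made tables. Bcl2a1b had the lowest SD in these tables, 0.0629, which was larger than 12.2% of the SDs of genes of its level. Which member was lowest depended on the library left out and on the table. It was Bcl2a1a at 0.0157 without replicate 1, Bcl2a1b at 0.0050 without replicate 2, Bcl2a1d at 0.0053 without replicate 3, and Bcl2 at 0.0490 in the FASTQ-made tables, where Bcl2a1b had 0.222. Bid and Bcl2l11 varied most in the alignment-made tables, with SDs of 0.33 and 0.326 and percentiles of 88.4 and 87.4. Poisson counting at their depth gives 0.0379 and 0.0366. Mcl1 was the third of those above the middle, at an SD of 0.196 and a percentile of 67.8.

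These SDs changed with the library left out. Leaving out the most distant of 3 values lowers an SD by construction, so the drops are a description only. Without replicate 2 the SD of Mcl1 was 0.0269 on the 2 remaining libraries. The neutrophil markers S100a8 and S100a9 were also highest in replicate 2, at 39.4 and 58.0 TPM. Ltf, Camp and Mpo were highest there too, at 1.73, 0.97 and 0.18 TPM on 53, 12 and 10 counts. In the other libraries they had at most 0.14, 0.76 and 0.17 TPM. Ly6g, Elane and Retnlg had 0 counts in replicate 2. The part of neutrophil RNA in the Mcl1 level was not tested. Without replicate 1 the SD of Bid was 0.137, and without replicate 3 that of Bcl2l11 was 0.191. The other omissions gave larger values. For Mcl1 they were 0.252 without replicate 1 and 0.225 without replicate 3. For Bid they were 0.318 without replicate 2 and 0.454 without replicate 3. For Bcl2l11 they were 0.46 without replicate 1 and 0.268 without replicate 2. In the FASTQ-made tables the median SD of the members was 0.271, and it was 0.179 after the median difference of all genes had been subtracted in each library, a step added after the data were seen. The SD of Bid was 0.189 in the FASTQ-made tables, against 0.33 in the alignment-made tables. Bcl2l11 and Bcl2l1 varied most in the FASTQ-made tables, with SDs of 0.546 and 0.396 and percentiles of 96.6 and 79.8. Bid and Mcl1 were at percentiles of 23 and 28.4 there, and at 77.2 and 59.2 after the median difference had been subtracted.

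Genes nearest in level over the 3 libraries were sought among all protein-coding genes by the largest absolute difference in log2(TPM + 0.1) in any library. For Mcl1 they were Myl12b, Ifi47 and Uqcrb, with largest differences of 0.11, 0.12 and 0.12. For Bcl2l11 they were Mul1, Uck1 and Mafk, at 0.05, 0.14 and 0.15. For Bcl2 they were Fbxo44, Zfp873 and Ahi1, at 0.07, 0.07 and 0.08. For the copies summed they were Lgals3bp, C1qc and Irf7, at 0.08, 0.18 and 0.18. With 3 libraries of 1 group this is a likeness of level only.

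Of the other genes of mitochondrial apoptosis, 47 of 54 measured genes in 6 lists had at least 1 TPM in all 3 libraries, beside 44.4% of all protein-coding genes. Among other survival genes of the family, Bcl2l2, which encodes Bcl-w, averaged 18.6 ± 2.36 TPM (SD, n = 3), and Bcl2l10 had 0 counts in every library, where 0 counts allow up to 3, or 0.0796 to 0.128 CPM. Of the other multidomain genes 2 of 5 reached 1 TPM, Bcl2l13 at 20.9 TPM and Bcl2l12 at 6.85 TPM. Bok, a further effector, had 0 counts in every library, and Bcl2l14 and Bcl2l15 averaged 0.143 and 0.0667 TPM.

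Of the other BH3-only and BNIP genes, 8 of 11 reached 1 TPM in all libraries. Bnip2 averaged 139 ± 9.29 TPM, Becn1, better known for autophagy, 85.2 ± 5.06 TPM and Bnip3l, a mitophagy receptor, 47.6 ± 3.53 TPM. Bmf, Bik and Hrk averaged 0.473, 0.223 and 0 TPM. Named after their values were seen, Bad averaged 44.2 ± 5.14 TPM, and the p53 targets Bbc3 (PUMA) and Pmaip1 (NOXA) 8.09 ± 2.70 and 6.52 ± 2.59 TPM. The p53 targets lay below Bcl2l11 in each library.

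In the list of mitochondrial release and the apoptosome, all 13 genes reached 1 TPM in every library. The channels Vdac2, Vdac3 and Vdac1 led with 288 ± 15.8, 165 ± 16.8 and 93.9 ± 5.2 TPM. All 8 caspase inhibitors did so too, led by Cflar, which blocks caspase-8, at 403 ± 23.8 TPM, Birc3, an NF-kappaB target, at 139 ± 3.77 TPM and Birc6 at 49.0 ± 9.59 TPM. All 14 known regulators of the members were also above 1 TPM, led by Tmbim6 at 632 ± 34.4 TPM, the myeloid factor Spi1 at 482 ± 56.5 TPM and Ywhaz at 277 ± 21.8 TPM. The medians of mean log2(TPM + 1) were 5.45, 5.13 and 5.71 for these 3 lists, between the 7.19 of the members and the 4.24 of expressed protein-coding genes. They were 2.69 for the other survival genes, 0.187 for the other multidomain genes and 3.95 for the other BH3-only and BNIP genes, all below 4.24.

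**Figure D5:**
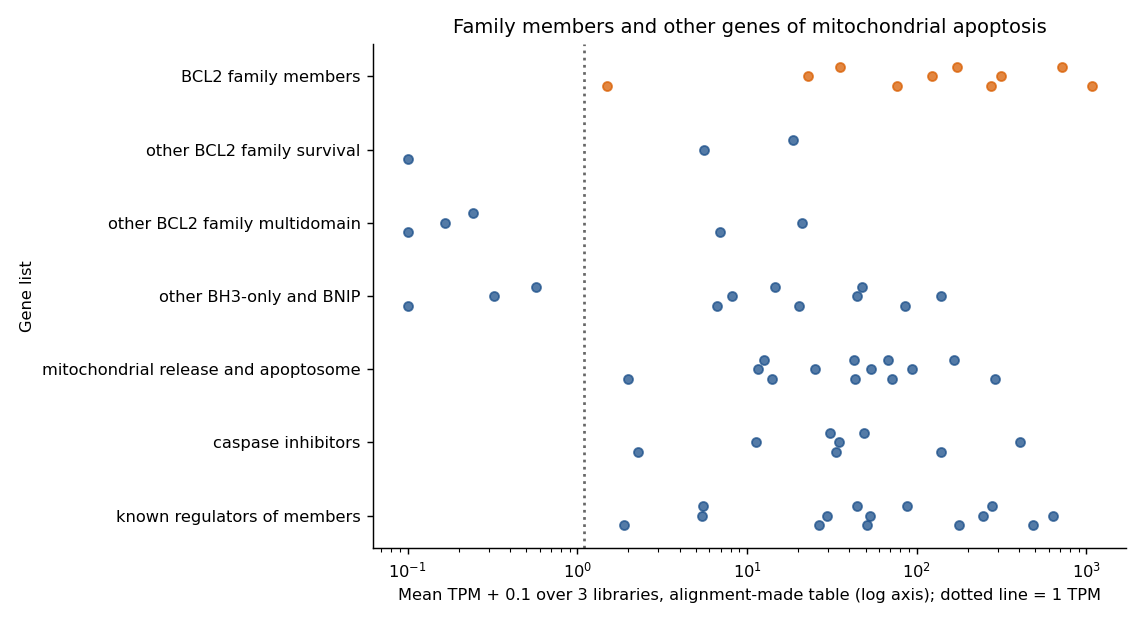
Mean level over 3 libraries (alignment-made TPM plus 0.1, log axis) of each member in orange and of each gene in 6 lists of mitochondrial apoptosis in blue, with points staggered only for legibility. The dotted line is 1 TPM, and the 7 genes left of it are in the lists of other BCL2 family and BH3-only genes.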

How the data were processed

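PolyA RNA of 3 samples in 1 group was measured. Per the file headers and the file lists deposited with the samples, the authors' gene and transcript tables made from a transcriptome alignment (mm10, annotation M21) hold expected counts and TPM, and their tables made from FASTQ files hold estimated counts and TPM. The deposited gene tables also hold a posterior standard deviation of each count, treated here as a score. Which programs made them, and whether strand was used, is not given in the sources used here.

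FASTQ-made values were summed per gene and matched by gene identifier. The phage phiX174 took 0.178%, 0.107% and 0.115% of expected counts and, like other entries that name no mouse gene (at most 0.194% in all), was left out of library sizes. Intervals and floors (3 counts) cover counting error only. A pseudocount of 0.1 was added to TPM before logs, unless 1 is stated, and none in ratios. Ratios were tested by an exact two-sided sign-flip permutation test. Counts were rounded for TMM factors in edgeR 4.0.16, after filterByExpr kept 12018 genes, and for size factors in DESeq2 1.42.0. Sequences are from GENCODE M21 transcripts and RefSeq. Shared sequence was counted over 31-base stretches on both strands. The calling of different genes and the percentile of spread were tested on simulated data. For the calling, the simulated tables were independent Poisson draws, whereas the deposited tables share their reads. The simulation therefore does not give the error rate of these calls. Other tools were Python 3.11.15, numpy, pandas, scipy, Biopython and matplotlib.

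The members, gene lists and tests were chosen with earlier results of these data known. Of each pathway list, the 3 genes highest in mean TPM and those averaging under 1 TPM could be named, and transcripts with at least 10% of their gene's TPM in any library. Of the listed genes, Bcl2l16 matched no symbol. Alternatives were FASTQ-made TPM, protein-coding transcripts alone, other scalings, pseudocounts, thresholds and filters, and leaving out each replicate.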

Additional observations from a re-analysis of the deposited data

How the results depend on the processing

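No paired analysis was possible because the labels give a single group. All 10 members kept at least 1 TPM (or 1 CPM) in every library under each of the 6 alternatives run, and all 9 ratios kept 1 sign in all libraries except in CPM, where 8 did. Counting protein-coding transcripts alone turned the log2 ratio of Bax to Bak1 to 0.77, against -0.50 with all transcripts. CPM, which are not per length, turned that of Bid to Bcl2l11 to -0.19, against 0.64 by TPM, and left that of the copies summed to Mcl1 at 0.24, against 2.73 by TPM. The mean share of Bcl2a1b in its copies was 52.1%, and without each replicate in turn it lay between 51.3% and 53.5%. The number of genes called different between the quantifications was 2322 without a filter on low values and 431 at a mean TPM of at least 5, against 1079, and lay between 1202 and 1366 without each replicate. It was 1122 after the median difference was subtracted, an alternative added after the data were seen. No member was called in any of these. The median SD of the members was 0.271 in the FASTQ-made tables, against 0.138 in the alignment-made tables, and between 0.133 and 0.173 without each replicate. The Bak1 share in transcripts annotated for nonsense-mediated decay averaged 49.5% in the FASTQ-made tables, against 58.8% in the alignment-made tables. Where no construction of the alternative shows it, the cause was not tested. The 3 libraries allow no p under 0.25. Depth limits Bcl2 and the genes under 1 TPM most.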
